A study of Mus musculus with 10 samples.

Results

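6 genes of the STAT family (Stat2, Stat3, Stat4, Stat5a, Stat5b and Stat6) and 3 feedback inhibitors of the SOCS family (Socs1, Socs3 and Cish) were followed through mouse melanoma tumours that carry an active form of the small GTPase ARF6 and through tumours that do not. The 9 genes were taken by symbol from the 52636 gene rows of a raw count table, through the GRCm38 annotation. All 9 passed the filter on low counts. The Arf6Q67L tumours had the genotype BrafCA;Cdkn2af/f; Arf6Q67L (6 tumours), and the controls had BrafCA;Cdkn2af/f (4 tumours). BrafCA is a conditional oncogenic allele of the kinase Braf and Cdkn2af/f a floxed tumour suppressor locus. Both groups carried these alleles, and 1 group alone had Arf6Q67L, an ARF6 that is locked in its GTP-bound state. The labels used here name no Cre driver, age, treatment or litter of the mice, and no promoter of the Arf6Q67L allele. Polyadenylated RNA of the tumours was sequenced, and whether each tumour came from its own animal is not stated, so p-values measure the spread between these tumours only.

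STAT proteins are transcription factors that wait in the cytoplasm. When a cytokine binds its receptor, JAK kinases phosphorylate the STATs bound to it, which pair up, enter the nucleus and switch on target genes. SOCS1, SOCS3 and CISH are themselves products of STAT target genes: they bind receptors or JAK kinases and shut the signal down. In tumours these genes are used both by the malignant cells and by the leukocytes around them.

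Library totals lay between 31372896 and 37918116 counts in Arf6Q67L tumours and between 28635414 and 40869091 counts in controls. Counts were scaled to library size as CPM with TMM factors, which lay between 0.958 and 1.08 over the 10 libraries. Summed melanocyte markers (7 genes) lay between 12.9 and 26.8 CPM in Arf6Q67L tumours and between 14.0 and 21.3 CPM in controls, and Tyr and Dct had no counts in any tumour. The sum was mostly Mitf, with means of 17.0 CPM in Arf6Q67L tumours and 16.6 CPM in controls. Of these 7 defining genes 5 (Sox10, Mlana, Tyr, Dct and Tyrp1) did not pass the filter, so most melanocyte markers were near or at 0. By Xist and 4 Y-linked genes, Arf6Q67L tumours 1, 3 and 4 and control 1 read as female and the other tumours as male. Control 4 had the highest summed level of pan-leukocyte genes (4 genes, 1218 CPM, against 351 to 825 CPM in the other 9 tumours).

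The promoters of 4 members are shown because they hold the DNA motifs that STAT complexes are known to bind, and because Stat2 and Socs1 are the members whose groups did not overlap. Each is the RefSeq window of GRCm38.p6 from 250 bases before to 50 bases after the annotated start, on the strand of the gene. Capitals mark matches to the core of the interferon-stimulated response element (TTTCNNTTTC or its reverse complement), to the GAS site of STAT dimers (TTCNNNGAA) and to the wider STAT6-type site (TTCNNNNGAA). Promoter windows were found for all 9 members.
Stat2, chr10:128270248-128270547, plus strand: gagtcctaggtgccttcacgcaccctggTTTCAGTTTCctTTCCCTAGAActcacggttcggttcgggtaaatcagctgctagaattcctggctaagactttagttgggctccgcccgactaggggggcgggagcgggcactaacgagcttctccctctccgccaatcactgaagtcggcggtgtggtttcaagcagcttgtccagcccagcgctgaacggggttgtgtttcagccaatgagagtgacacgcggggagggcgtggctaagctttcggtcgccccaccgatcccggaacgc
Socs1, chr16:10785487-10785786, minus strand: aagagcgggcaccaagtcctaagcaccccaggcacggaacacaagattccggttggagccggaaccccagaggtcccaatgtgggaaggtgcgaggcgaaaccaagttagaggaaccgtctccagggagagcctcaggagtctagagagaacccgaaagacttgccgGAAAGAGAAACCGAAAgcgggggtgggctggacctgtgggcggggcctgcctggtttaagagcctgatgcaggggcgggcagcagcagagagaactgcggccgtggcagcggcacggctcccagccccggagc
Socs3, chr11:117969317-117969616, minus strand: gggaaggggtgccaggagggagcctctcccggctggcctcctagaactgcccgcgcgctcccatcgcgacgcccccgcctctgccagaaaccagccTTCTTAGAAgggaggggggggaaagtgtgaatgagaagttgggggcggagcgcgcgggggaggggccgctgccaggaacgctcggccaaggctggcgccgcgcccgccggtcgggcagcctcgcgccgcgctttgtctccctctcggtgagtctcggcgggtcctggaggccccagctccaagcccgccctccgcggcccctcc
Cish, chr9:107296409-107296708, plus strand: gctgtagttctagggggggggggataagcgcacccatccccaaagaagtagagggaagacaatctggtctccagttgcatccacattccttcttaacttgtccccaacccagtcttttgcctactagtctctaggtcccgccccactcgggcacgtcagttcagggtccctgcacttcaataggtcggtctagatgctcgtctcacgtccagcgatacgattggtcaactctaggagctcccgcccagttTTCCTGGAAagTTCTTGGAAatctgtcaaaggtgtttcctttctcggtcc

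The Stat2 window held 1 response element core that begins 222 bases before the start, beside 1 STAT6-type match. The Socs1 window held 2 overlapping response element cores, which begin 83 and 77 bases before the start. The Socs3 window held 1 GAS match at 154 bases before the start, and the Cish window 2 GAS matches in its first transcribed bases. Of all 32851 RefSeq promoter windows searched on both strands, 3.44% held the response element core, 8.3% the GAS letters and 6.95% the STAT6-type letters. Of the other members, Stat4 held 1 response element core in the second of its windows, and no match was found in the windows of Stat3, Stat5a, Stat5b or Stat6. A match describes the letters and is no evidence of binding.

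Stat2 differed most between the genotypes. It encodes the STAT that joins IRF9 in the transcription factor activated by type I interferon receptors. In Arf6Q67L tumours it ran from 46.7 CPM through a median of 67.5 CPM to 102 CPM. In controls 1 to 4 it stood at 159, 153, 150.2 and 219 CPM. The groups did not overlap: the highest Arf6Q67L tumour, number 2, was below the lowest control, number 3. Means were 70.9 ± 20.3 CPM in the 6 Arf6Q67L tumours and 170.3 ± 32.4 CPM in the 4 controls (SD), and the log2 fold change was -1.26 (SE 0.21). In edgeR's quasi-likelihood test the unadjusted p was 1.35e-04, the 10th lowest of 17286 genes tested, and the Benjamini-Hochberg adjusted p was 0.199, which misses the threshold of 0.05. DESeq2 gave -1.25 (SE 0.23) with an adjusted p of 8.81e-05. In male tumours alone (3 and 3), a comparison added after the data were seen, the log2 fold change was -1.15 (SE 0.32, edgeR adjusted p = 0.426), and the 3 female Arf6Q67L tumours (55.4, 65.9 and 69.2 CPM) were below the single female control (159 CPM).

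**Figure D1:**
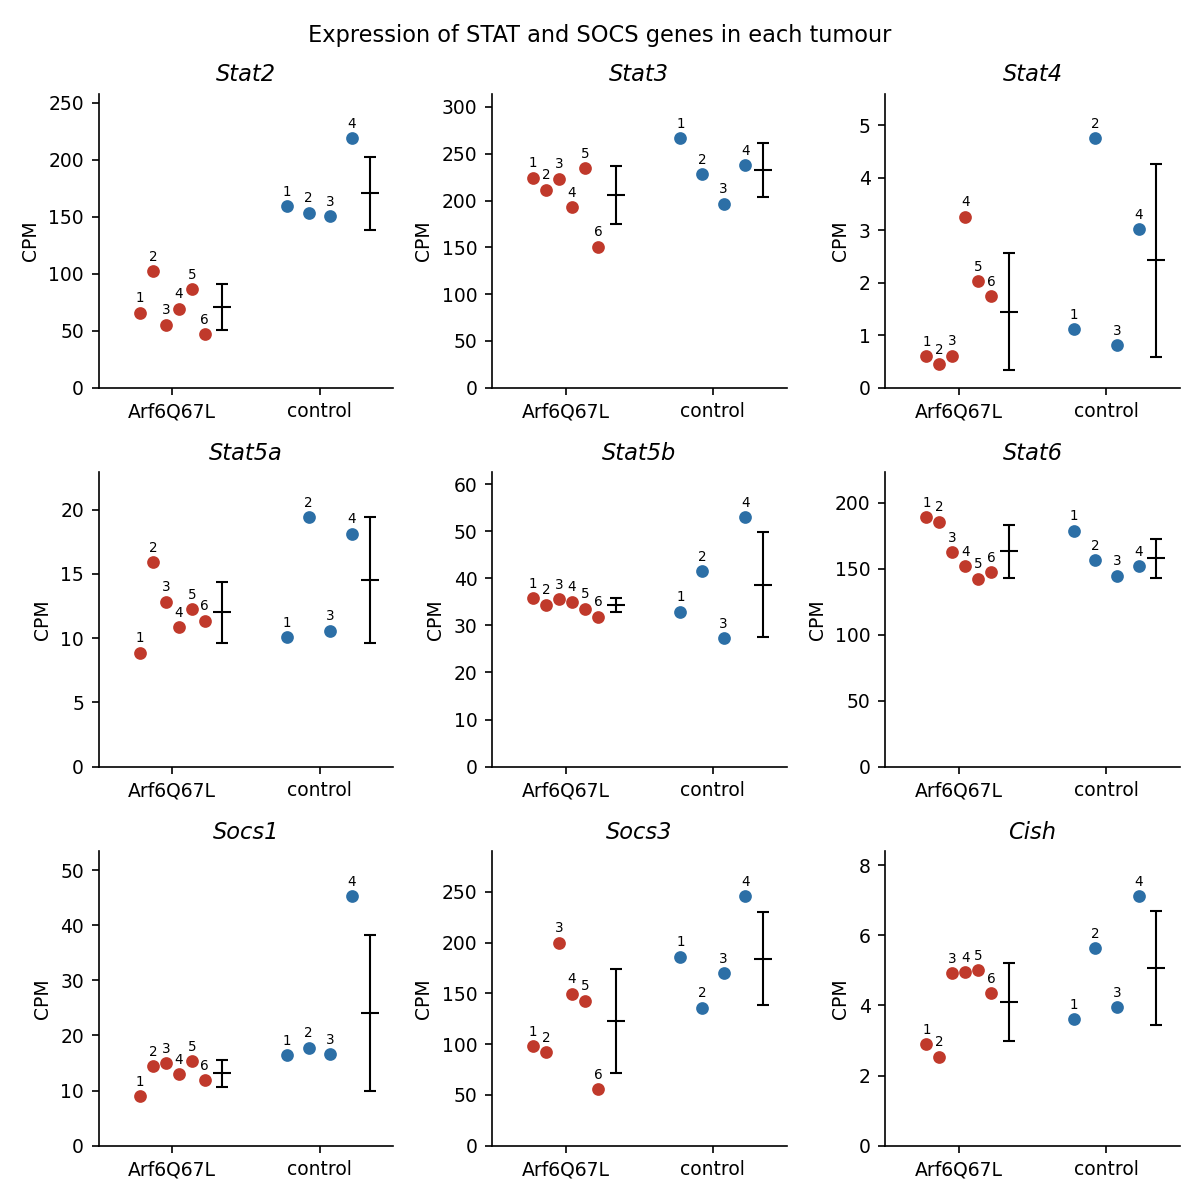
Level of each STAT and SOCS gene in CPM (linear axis from 0) in 6 Arf6Q67L and 4 control tumours. Points are tumours, numbered within their group, and the bar beside each group is the mean with 1 SD. Stat2 and Socs1 are the panels without overlap between groups, and control 4 stands at 45.3 CPM for Socs1.

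Over the 9 members, 8 had a negative log2 fold change and 1 (Stat6) a positive one, with a median of -0.30. Over all genes tested, 50.3% were negative and the median was -0.00177. Past the edgeR threshold were 0 of 9 members, as were 0% of all genes tested. At an unadjusted p under 0.05, 2 members were lower (Stat2 and Socs1) and 0 higher, against 7.05% of all genes lower and 4.65% higher. DESeq2 called 1 member (Stat2), against 2.5% of genes with an adjusted p there. Groups were apart with Arf6Q67L below control for Stat2 and Socs1, against 1.28% of all genes, and with Arf6Q67L above control for 0 members, against 1.15% of genes. The members were chosen with earlier results of these data known, so these counts describe them only.

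Stat3, the STAT of the interleukin-6 family and a widely active one in tumours, was at 151 to 235 CPM in Arf6Q67L tumours with a median of 217 CPM. In controls 1 to 4 it was at 266, 228, 197 and 238 CPM. The ranges overlapped, and Arf6Q67L tumour 6 was lowest of all. Its log2 fold change was -0.17 (SE 0.14, edgeR adjusted p = 0.661), and it was -0.09 without Arf6Q67L tumour 6 and -0.10 without control 1.

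Stat6, which carries the interleukin-4 and interleukin-13 signal, varied less within each group than Stat2 or Stat3 (SD over mean 12.2% in Arf6Q67L tumours and 9.32% in controls). It ran from 142 CPM through a median of 157 CPM to 189 CPM in Arf6Q67L tumours, against 179, 156, 145 and 152 CPM in controls 1 to 4. The log2 fold change was 0.05 (SE 0.11, edgeR adjusted p = 0.902). Stat6 lies on chromosome 10 (127642986 to 127660957) with a gap of 609601 bases to Stat2 (128270559 to 128292849), and the fold changes of Stat6 and Stat2 differed in size.

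Stat5a and Stat5b are paralogues that transmit growth hormone, prolactin, interleukin-2 and GM-CSF signals, and they lie 8626 bases apart on chromosome 11. Stat5a was at 8.85 to 15.9 CPM in Arf6Q67L tumours (median 11.8 CPM) and at 10.1, 19.4, 10.6 and 18.1 CPM in controls 1 to 4. Its log2 fold change was -0.28 (SE 0.23, edgeR adjusted p = 0.688). It was -0.10 without control 2, -0.14 without control 4 and -0.42 without control 1. Stat5b was at 31.8 to 35.8 CPM in Arf6Q67L tumours (median 34.7 CPM), a spread of 4.3% of the mean (SD over mean). In controls 1 to 4 it was at 32.9, 41.5, 27.3 and 52.9 CPM, a spread of 28.9%, so that all Arf6Q67L tumours lay inside the control range. Its log2 fold change of -0.17 (SE 0.16, edgeR adjusted p = 0.724) turned to 0.03 without control 4 and was -0.30 without control 3. Of windows of 50 bases in their transcripts, 8.21% of those of Stat5a and 11% of those of Stat5b are identical in the other gene, so that some reads could be assigned to neither or to both. Stat5a also overlaps the end of Stat3 on the opposite strand by 72 exonic bases, and the labels used here do not say whether counting used strand.

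Stat4, the STAT of interleukin-12 in T cells and NK cells, was the member with fewest reads, from 16 to 151 counts per library. In Arf6Q67L tumours 1 to 3 it was at 0.596, 0.441 and 0.607 CPM, and in tumours 4 to 6 at 3.26, 2.03 and 1.74 CPM. In controls 1 to 4 it was at 1.12, 4.75, 0.81 and 3.02 CPM. High and low tumours occurred in both groups, and the log2 fold change of -0.74 (SE 0.67) had an edgeR adjusted p of 0.711. It was -0.18 without control 2 and -1.16 without Arf6Q67L tumour 4. Summed T cell markers (11 genes, all tested, all with a negative log2 fold change, none at 0 in all tumours) lay between 26.6 and 120 CPM in Arf6Q67L tumours and between 57.5 and 430 CPM in controls. Arf6Q67L tumours 4, 5 and 6, the high ones for Stat4, also had the highest T cell sums of their group (120, 102 and 75.5 CPM), and so did controls 2 and 4 of theirs (319 and 430 CPM). Their part in the level of Stat4 was not tested, and in bulk tissue fewer cells of a type and less RNA per cell cannot be told apart. Of the merged exon length of Stat4, 26.7% is shared with Gm28177 on the same strand, which had at most 4 counts in a library. Reads in the shared part could have been assigned to neither gene, which would lower the level of Stat4 per kilobase.

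Among the feedback inhibitors, Socs1 was lower in every Arf6Q67L tumour than in any control. SOCS1 blocks JAK kinases at interferon receptors. It stood at 8.99 to 15.4 CPM in Arf6Q67L tumours (median 13.7 CPM) and at 16.5, 17.8, 16.6 and 45.3 CPM in controls 1 to 4. Controls 1 to 3 lay close above the Arf6Q67L tumours and control 4 far above all others. Means were 13.1 ± 2.42 CPM in the 6 Arf6Q67L tumours and 24.0 ± 14.2 CPM in the 4 controls (SD). The log2 fold change was -0.88 (SE 0.30, unadjusted p = 0.0158, edgeR adjusted p = 0.345), and it was -0.36 (SE 0.17, unadjusted p = 0.0634) without control 4. Control 4 also had the highest summed macrophage markers (8 genes, none at 0 in all tumours, 4210 CPM). In the other controls these lay between 1165 and 2602 CPM and in Arf6Q67L tumours between 947 and 1780 CPM. Its T cell and pan-leukocyte sums were the highest too, and their part in the level of Socs1 was not tested.

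Socs3, the inhibitor of gp130 receptors that STAT3 induces, varied more within the Arf6Q67L group (SD over mean 41.5%) than any other member but Stat4. It ran from 55.8 CPM in tumour 6 to 199.7 CPM in tumour 3 with a median of 120.5 CPM. In controls 1 to 4 it was at 186, 136, 170 and 245 CPM. Arf6Q67L tumours 1, 2 and 6 were below every control and tumours 3, 4 and 5 inside the control range. The log2 fold change was -0.58 (SE 0.31, edgeR adjusted p = 0.502), and -0.92 in male tumours alone. Summed mast cell markers (7 genes) were highest in Arf6Q67L tumours 6 and 2 (678 and 376 CPM), which had the lowest Socs3 of all tumours. Over the 10 tumours Pearson's r of Socs3 with the mast cell sum was -0.81 (Spearman's rho -0.61), as a description, since both values come from the same libraries. With that sum Stat2 (r = -0.65, rho = -0.64) and Stat3 (r = -0.65, rho = -0.53) were negative too. Stat5a (r = 0.15) and Stat6 (r = 0.14) were positive. The part of mast cells in the levels of these genes was not tested.

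Cish, a STAT5 target whose product competes for receptor docking sites, was at 2.54 to 5.0 CPM in Arf6Q67L tumours (median 4.63 CPM). In controls 1 to 4 it was at 3.6, 5.63, 3.95 and 7.11 CPM. Arf6Q67L tumours 1 and 2 were below every control and the other 4 inside the control range. The log2 fold change was -0.30 (SE 0.28, edgeR adjusted p = 0.718). It was -0.09 without control 4 and -0.19 without Arf6Q67L tumour 2. Mast cells, which depend on STAT5, had markers (7 genes, none at 0 in all tumours) at 41.1 to 678 CPM in Arf6Q67L tumours and 14.3 to 68.9 CPM in controls. All 7 had a positive log2 fold change (median 3.03). Higher at an unadjusted p under 0.05 were 6, against 4.65% of all genes. DESeq2 called 4, against 2.5% of genes, and edgeR called 0. Tumours 2 and 6, with 376 and 678 CPM, had 2.54 and 4.35 CPM of Cish, of which the value in tumour 2 was the lowest of all tumours. Over the 10 tumours Pearson's r of Cish with the mast cell sum was -0.30 (Spearman's rho -0.10). It was 0.83 (rho 0.85) with the macrophage sum, 0.74 (rho 0.79) with the T cell sum and 0.75 (rho 0.71) with the pan-leukocyte sum. These coefficients are a description within the same libraries. The part of mast cells or of other leukocytes in the level of Cish was not tested.

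**Figure D2:**
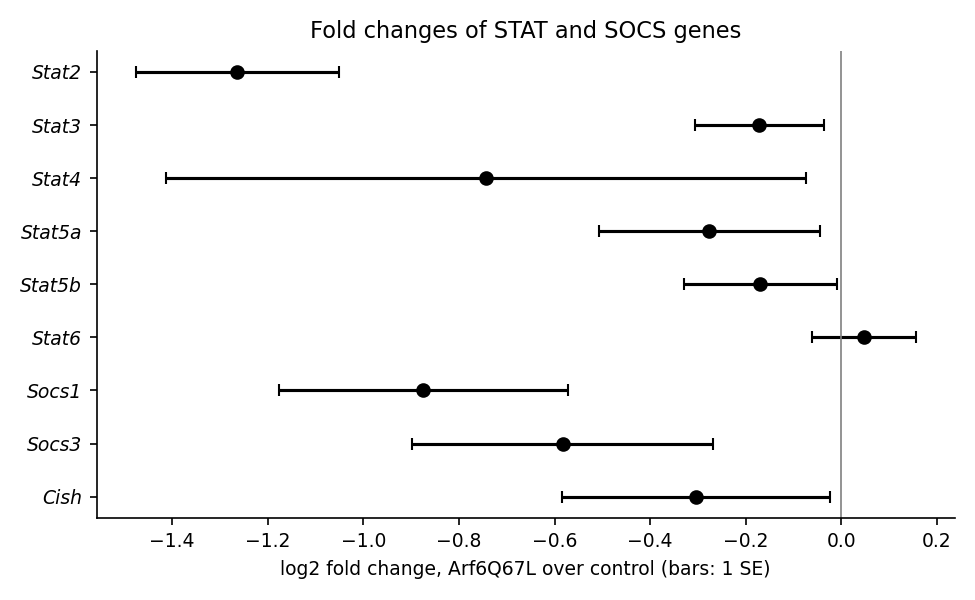
Log2 fold change of each member, Arf6Q67L over control, from the edgeR fit on 10 tumours; bars are 1 standard error. Stat2 lies farthest from 0 at -1.26, Socs1 follows at -0.88, and Stat6 is the member above 0.

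Whether members differed by unequal amounts was asked directly with 9 ratios between members within each tumour, in which the scaling of the library cancels. The log2 ratio of Stat2 to Stat3 was -1.57 ± 0.33 in Arf6Q67L tumours (SD, n = 6) and -0.46 ± 0.27 in controls (SD, n = 4). The difference of -1.12 had a two-sided exact permutation p of 0.00476, the smallest that 210 splits of 6 and 4 tumours allow, and an adjusted p of 0.0214 over the 9 ratios. All 6 Arf6Q67L tumours, from -2.01 to -1.05, were below all controls, which lay from -0.74 to -0.12. The ratio of Stat2 to Stat6 was -1.24 ± 0.39 in Arf6Q67L tumours (SD, n = 6) and 0.09 ± 0.30 in controls (SD, n = 4). Here too the 6 Arf6Q67L tumours were below all controls, with a difference of -1.34 and the same exact permutation p of 0.00476 (adjusted p = 0.0214). Stat2 was thus lower relative to both of these STATs and not only per library, although these ratios were picked with the result for Stat2 known.

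The ratio of Stat3 to Stat6 differed by -0.22 (exact permutation p = 0.119, adjusted p = 0.249), with overlapping groups. Socs1 to Stat2 was higher by 0.55 in Arf6Q67L tumours (exact permutation p = 0.0857), and by 0.78 without control 4 (exact permutation p = 0.0357). Socs3 to Stat3 differed by -0.49 (exact permutation p = 0.138) and Stat4 to Stat3 by -0.56 (exact permutation p = 0.505). For Stat5a to Stat5b (-0.11, exact permutation p = 0.576), Cish to Stat5a (-0.06, exact permutation p = 0.924) and Socs1 to Socs3 (-0.08, exact permutation p = 0.819) the direction changed when 1 tumour was left out. For those 7 ratios adjusted p-values ran from 0.249 to 0.924.

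**Figure D3:**
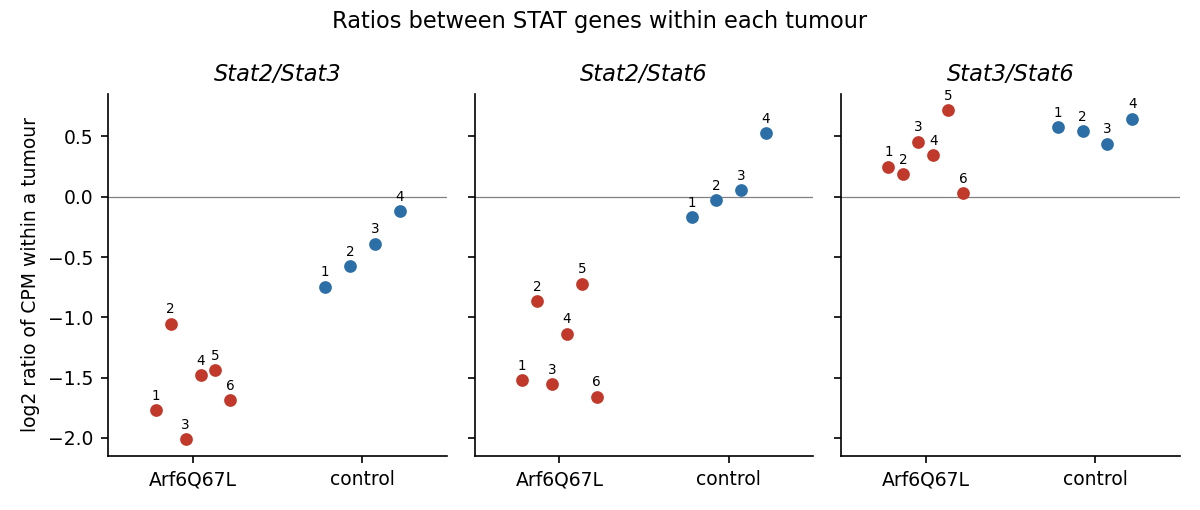
Log2 ratio of CPM between STAT genes within each tumour, for 6 Arf6Q67L and 4 control tumours (points, numbered within their group). Ratios with Stat2 as numerator are lower in every Arf6Q67L tumour than in any control, while those of Stat3 to Stat6 overlap.

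Per kilobase of merged exons and over all 10 tumours, Socs3 had the highest level of the 9 genes, at 51.0 ± 19.4 CPM per kilobase (SD, n = 10). Stat6 followed at 36.6 ± 3.92, Stat3 at 22.7 ± 3.29, Stat2 at 18.7 ± 9.57, Stat5b at 6.51 ± 1.25, Socs1 at 6.01 ± 3.47, Stat5a at 1.83 ± 0.50, Cish at 0.70 ± 0.21 and Stat4 at 0.47 ± 0.37 CPM per kilobase. Neighbours in this order overlapped in range except Stat6 above Stat3, Socs1 above Stat5a and Stat5a above Cish. Measured per length of the longest principal transcript instead, Stat3 (48.0 ± 6.95 CPM per kilobase) came before Stat6 (42.7 ± 4.57 CPM per kilobase), so the order of these genes depends on the length used. The order by merged exons is over both genotypes together, and by that length several neighbours stood differently within each. Per kilobase of merged exons Stat3 was above Stat2 in 6 of 6 Arf6Q67L tumours and in 1 of 4 controls. Stat5b was above Socs1 in 6 of 6 Arf6Q67L tumours and in 2 of 4 controls. Socs3 was above Stat6 in 3 of 6 Arf6Q67L tumours and in 4 of 4 controls. For Stat3 and Stat2 merged exons are 9527 and 5926 bases, and the longest principal transcripts 4516 and 4394 bases. In CPM without length Stat3 was above Stat2 in every tumour, with a highest log2 ratio of Stat2 to Stat3 of -0.12. The order of Stat3 and Stat2 in controls thus also depends on the length used. Of the summed level of these 6 STATs per kilobase, Stat2 made up 15.0% ± 3.13 in Arf6Q67L tumours (SD, n = 6) and 29.0% ± 3.52 in controls (SD, n = 4).

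Genes upstream of the STATs were taken from lists of the pathway and read from the same fit over all genes. The list of the interleukin-12 and interleukin-23 axis also holds STAT4 targets. No gene of these lists passed the edgeR threshold, and the lists in which DESeq2 called a gene are named as such. Over all genes tested, 7.05% were lower and 4.65% higher at an unadjusted p under 0.05 in edgeR. DESeq2 called 2.5% of genes with an adjusted p there. The JAK kinases, which phosphorylate STATs, were negative in 4 of 4 genes (median log2 fold change -0.32, and -0.11 without control 4), with 1 at an unadjusted p under 0.05 and 0 called by DESeq2. Jak3, the kinase of the common gamma chain in lymphocytes, was at 39.6 ± 9.88 CPM in the 6 Arf6Q67L tumours and 63.9 ± 18.7 CPM in the 4 controls (SD), and its log2 fold change was -0.69 (SE 0.23). Jak2 (-0.42, SE 0.22) and Tyk2 (-0.21, SE 0.14) reached adjusted p-values of 0.477 and 0.586 in edgeR.

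Ligands and receptors of the gp130 and interleukin-10 families, which act mainly through STAT3, were tested in 14 of 15 genes (Csf3 was below the filter), of which 9 were negative at a median of -0.40. That median was -0.74 without Arf6Q67L tumour 3, -0.27 without Arf6Q67L tumour 6 and -0.92 in male tumours alone. In the list, 2 genes were lower and 0 higher at an unadjusted p under 0.05, against 7.05% and 4.65% of all genes. DESeq2 called 1 (Csf3r), against 2.5% of genes. Groups were apart with Arf6Q67L below control for 1 gene (Csf3r), against 1.28% of all genes. Csf3r, the G-CSF receptor of neutrophils and their precursors, was at 6.64 to 21.3 CPM in Arf6Q67L tumours and 22.8 to 50.1 CPM in controls, groups that did not overlap (log2 fold change -1.35, SE 0.32, edgeR adjusted p = 0.239, DESeq2 adjusted p = 0.0116). Il10ra, the interleukin-10 receptor chain (-1.27, SE 0.44), and Il6 (-1.39, SE 0.70) reached adjusted p-values of 0.345 and 0.476 in edgeR. Summed neutrophil markers (5 genes) overlapped widely, at 2.89 to 75.7 CPM in Arf6Q67L tumours and 5.84 to 202 CPM in controls. The 4 tested ones (Ly6g was below the filter) were all negative at a median log2 fold change of -1.04, with 0 at an unadjusted p under 0.05 in edgeR. The part of neutrophils in the level of Csf3r was not tested.

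The list upstream of STAT5 was tested in 16 of 20 genes, with Il5ra, Csf2 and Prlr among those below the filter. Of these, 11 were negative at a median of -0.37 (-0.68 without Arf6Q67L tumour 4). With an unadjusted p under 0.05, 4 were lower and 0 higher, against 7.05% and 4.65% of all genes. DESeq2 called 0, against 2.5% of genes. Il21r (-1.48, SE 0.51), the interleukin-21 receptor, Csf2ra (-0.93, SE 0.32), the GM-CSF receptor chain, and Il2rg (-0.97, SE 0.35), the common gamma chain, reached adjusted p-values between 0.345 and 0.358 in edgeR. The interleukin-12 and interleukin-23 axis with STAT4 targets was tested in 7 of 9 genes (Il12a and Il12b were below the filter), all 7 negative at a median of -1.16, which was -0.71 without control 4. At an unadjusted p under 0.05, 2 of them were lower, and DESeq2 called 1 (Il12rb1), against the same shares of all genes. Il12rb1, a receptor chain for interleukin-12, was at 3.36 ± 2.69 CPM in the 6 Arf6Q67L tumours and 14.0 ± 9.03 CPM in the 4 controls (SD), and its log2 fold change was -2.05 (SE 0.63, edgeR adjusted p = 0.299, DESeq2 adjusted p = 0.0415). Ifng, which encodes interferon-gamma (-2.75, SE 1.09), and Il23a (-1.16, SE 0.55) reached adjusted p-values of 0.386 and 0.452 in edgeR. The interleukin-4 and interleukin-13 axis upstream of STAT6 (4 of 5 genes tested, Il13 below the filter) was negative in 3 genes at a median of -0.24 (-0.04 without control 1 and -0.13 without Arf6Q67L tumour 6), with 0 genes at an unadjusted p under 0.05. Its lowest p-values were those of the receptor chains Il13ra1 (-0.35, SE 0.34), Il13ra2 (-0.41, SE 0.59) and Il4ra (-0.12, SE 0.29).

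Of the pathway lists, that of STAT2 partners and type I interferon targets, which also holds interferon receptor chains, stood farthest from 0. Of 12 genes tested 11 were negative, at a median log2 fold change of -1.71. Lower at an unadjusted p under 0.05 were 10, against 7.05% of all genes. In 6 the groups did not overlap, with Arf6Q67L below control, against 1.28% of all genes. The gene with a positive value was Ifnar1, a receptor chain (0.01, SE 0.18). Mx1, an antiviral GTPase (-2.09, SE 0.27), Ifit2 (-1.35, SE 0.19) and the ubiquitin-like Isg15 (-2.03, SE 0.36) reached adjusted p-values between 0.146 and 0.226 in edgeR. DESeq2 called 8 genes of the list, against 2.5% of genes with an adjusted p there. The sum of the list, Stat2 not included, was 255 to 514 CPM in Arf6Q67L tumours and 671 to 1143 CPM in controls. Tumours 2 and 5 had the highest Stat2 (102 and 86.4 CPM) and the highest list sums (514 and 436 CPM) of the Arf6Q67L group, and control 4 had the highest of both among controls (219 and 1143 CPM).

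STAT3 targets were negative in 9 of 9 genes at a median of -0.63. Lower at an unadjusted p under 0.05 were 3, against 7.05% of all genes. DESeq2 called 1 (Pim1), against 2.5% of genes. Pim1, a survival kinase, was at 19.4 ± 5.99 CPM in the 6 Arf6Q67L tumours and 34.1 ± 6.14 CPM in the 4 controls (SD), and its log2 fold change was -0.81 (SE 0.22, edgeR adjusted p = 0.273, DESeq2 adjusted p = 0.0408). Lcn2, an iron-binding lipocalin of inflammation (-2.92, SE 1.16), and Bcl3 (-0.46, SE 0.19), a nuclear cofactor of NF-kappaB, reached adjusted p-values of 0.386 and 0.387 in edgeR. Lcn2 ran from 0.286 to 11.8 CPM in Arf6Q67L tumours and from 1.79 to 155 CPM in controls. Several of these targets are induced by other pathways as well. STAT5 targets were positive in 3 of 5 genes at a median of 0.21, and the median became negative without Arf6Q67L tumour 4 (-0.04), without control 1 (-0.02) or in male tumours alone (-0.11). Bcl6 (-0.32, SE 0.19), Pim2 (-0.20, SE 0.15) and the survival gene Bcl2l1 (0.21, SE 0.18) had its lowest p-values, none under 0.05 unadjusted. STAT6 targets of macrophages were tested in 8 of 9 genes (Ccl17 was below the filter), 6 negative and 2 positive at a median of -0.65, which was -1.32 without Arf6Q67L tumour 4, -0.38 without control 2 and -0.41 with no filter, and 0 had an unadjusted p under 0.05. Arginase gene Arg1 (-1.56, SE 0.80) and the chemokines Ccl24 (-2.56, SE 1.33) and Ccl22 (-1.45, SE 0.91) reached adjusted p-values between 0.478 and 0.572 in edgeR.

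**Figure D4:**
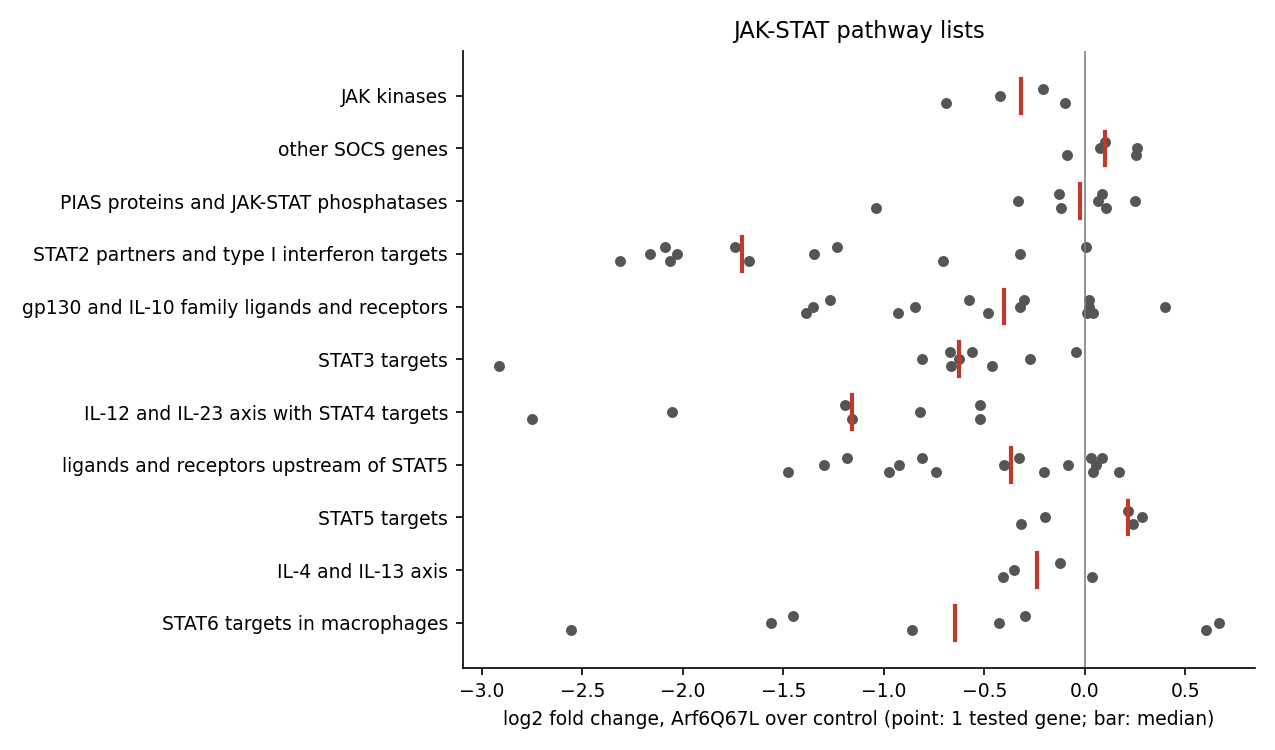
Log2 fold change, Arf6Q67L over control, of each tested gene (grey points) in 11 lists of the JAK-STAT pathway, with the median of each list (red bar). The list of STAT2 partners and type I interferon targets has its median at -1.71, and the other SOCS genes lie near 0.

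Other inhibitors of the pathway were also read. The other SOCS genes (Socs2, Socs4, Socs5, Socs6 and Socs7) were positive in 4 of 5 at a median of 0.10 (0.02 without control 3 and 0.22 without control 4), with 0 at an unadjusted p under 0.05 in edgeR and 0 called by DESeq2. Socs4 (0.25, SE 0.13), Socs5 (0.26, SE 0.25) and Socs6 (0.10, SE 0.13) reached adjusted p-values between 0.461 and 0.796 in edgeR. Whether they differ from Socs1 in response was not tested. PIAS proteins and phosphatases of the pathway were negative in 4 of 8 genes at a median of -0.03. With an unadjusted p under 0.05, 2 were lower and 0 higher, against 7.05% and 4.65% of all genes. DESeq2 called 1 (Ptpn2), against 2.5% of genes. Groups were apart with Arf6Q67L below control for 1 gene (Ptpn2), against 1.28% of all genes. Ptpn2, the phosphatase that removes phosphate from JAKs and STATs in the nucleus and cytoplasm, was at 39.6 to 44.8 CPM in Arf6Q67L tumours and at 49.4 to 52.9 CPM in controls. The groups did not overlap, and its log2 fold change of -0.33 (SE 0.07) had an edgeR adjusted p of 0.233 and a DESeq2 adjusted p of 1.12e-05. Ptpn6, a phosphatase of blood cells (-1.04, SE 0.36), and Pias3, an inhibitor of STAT3 (0.25, SE 0.13), reached adjusted p-values of 0.345 and 0.477 in edgeR.

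Leukocyte markers lay beside these differences as follows. All tested T cell (11), macrophage (8), dendritic cell (5) and pan-leukocyte genes (4) had negative log2 fold changes. Their medians were -2.09, -0.89, -0.78 and -0.68. At an unadjusted p under 0.05 in edgeR, 6, 6, 2 and 2 of them were lower, against 7.05% of all genes. DESeq2 called 0, against 2.5% of genes, and edgeR called 0. Of 7 NK and cytotoxic genes 4 were negative, and all 7 mast cell genes were positive. Controls 2 and 4 had T cell and macrophage sums above every Arf6Q67L tumour. Controls 1 and 3 had T cell sums of 57.5 and 74.9 CPM and macrophage sums of 1165 and 1433 CPM, inside the ranges of the Arf6Q67L tumours. In controls 1 and 3 Stat2 was at 159 and 150.2 CPM and Socs1 at 16.5 and 16.6 CPM, each above every Arf6Q67L tumour. Dendritic cell sums (5 genes, none at 0 in all tumours) were 40.4 to 65.0 CPM in Arf6Q67L tumours and 50.4 to 159 CPM in controls, with control 3 (50.4 CPM) inside the Arf6Q67L range and control 1 (87.7 CPM) above it. Over the 10 tumours Pearson's r of Stat2 with the dendritic cell sum was 0.77 (rho 0.68). For Socs1, r was 0.84 with both the pan-leukocyte sum (rho 0.68) and the macrophage sum (rho 0.75), again within the same libraries. Endothelial sums (5 genes) were 59.9 to 247 CPM in Arf6Q67L tumours and 109 to 256 CPM in controls. Muscle sums (6 genes) ran from 13.4 to 691 CPM in Arf6Q67L tumours and from 3.1 to 1077 CPM in controls. Adipocyte sums (5 genes) were 5.46 to 73.1 CPM in Arf6Q67L tumours and 14.2 to 186 CPM in controls, while NK and cytotoxic sums (7 genes) were 11.3 to 171 CPM in Arf6Q67L tumours and 54.0 to 264 CPM in controls. The part of these cell types in the levels of Stat2, Socs1 and the other members was not tested.

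**Figure D5:**
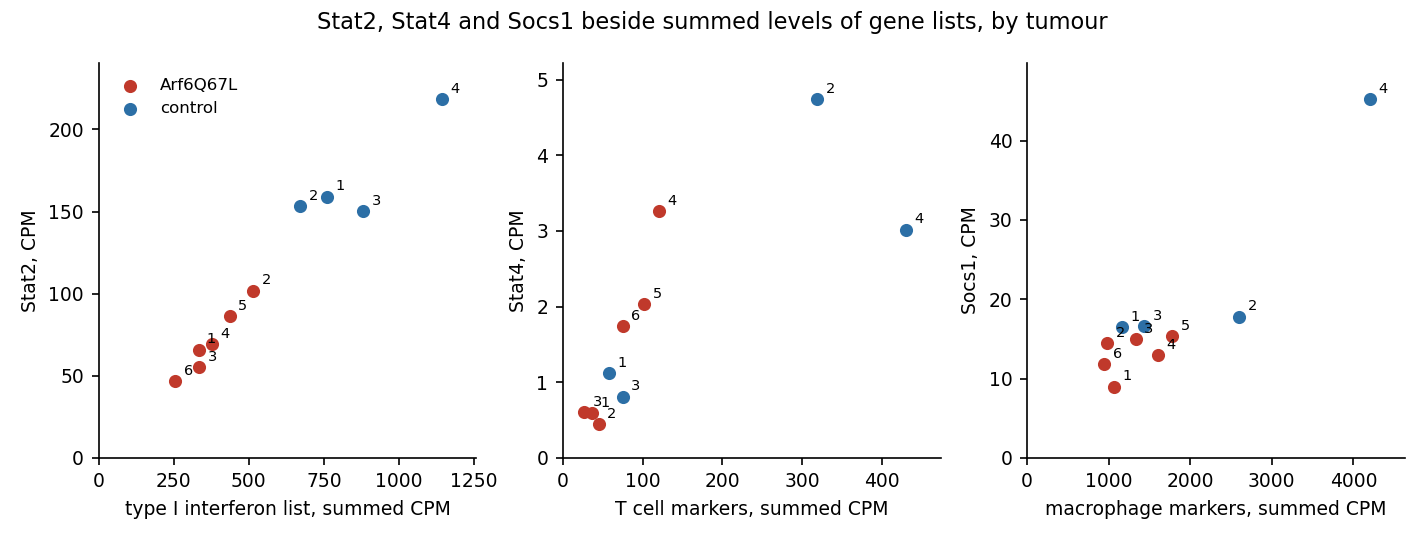
CPM of Stat2, Stat4 and Socs1 (vertical axes) against the summed CPM of the type I interferon list, T cell markers and macrophage markers (horizontal axes), 1 point per tumour, numbered within its group. Among Arf6Q67L tumours, Stat2 and the interferon sum are both highest in tumours 2 and 5, Stat4 is high in tumours with high T cell sums, and control 4 is highest for Socs1 and for macrophage markers.

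The genes whose pattern over the 10 tumours was most like each member were sought among 12261 other genes by Pearson's r of log2 CPM, as a description, since the highest of so many coefficients is high by selection. For Stat2 these were Xaf1 (r = 0.97, Spearman's rho = 0.94), Ifih1 (r = 0.97, rho = 0.93) and Oasl2 (r = 0.97, rho = 0.95), all known to be induced by interferon. Within the 6 Arf6Q67L tumours alone, r with Stat2 was 0.96 for Xaf1, 0.83 for Ifih1 and 0.96 for Oasl2. For Stat4 they were Gimap3, Ctsw and Cd3d (r from 0.96 to 0.97, rho from 0.93 to 0.95), of which Cd3d, a CD3 subunit gene, is in the T cell list. Socs3 was most like Tpd52l1 (r = 0.94) and Bcl3 (r = 0.94), which is in the list of STAT3 targets. Socs1 was most like Kazald1 (r = 0.96), Abcg1 (r = 0.94) and the macrophage marker Cd68 (r = 0.94), and the high value of control 4 enters each of these coefficients. Cish was most like Rassf4 (r = 0.96), Rdm1 (r = 0.95) and Ccr3 (r = 0.94), Stat3 most like Dbnl (r = 0.95), Gsap (r = 0.92) and Nfkbib (r = 0.91), and Stat6 most like Dhx16 (r = 0.95), Stk24 (r = 0.94) and Sav1 (r = 0.93). Stat5a was most like Lhpp (r = 0.93), Exoc6 (r = 0.92) and Cyb561d1 (r = 0.89), and Stat5b most like Gk, Dennd4b and Ptpn22 (r from 0.95 to 0.96). None of the 3 genes nearest to Stat5a was among the 3 nearest to Stat5b.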

How the data were processed

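RNA-seq libraries (Illumina TruSeq Stranded mRNA, polyA selected, per the labels' protocols) of 10 tumours were used as raw counts per gene, deposited by the authors in 1 table with 1 column per tumour; 0 columns were left unmapped. The submitters' processing notes list STAR 2.5.2b, featureCounts 1.5.1, DESeq2 1.18.0 and GRCm38 with no roles. Neither the strand setting nor the handling of multi-mapping reads is given in the sources used here. Groups follow the genotype label, and genotype cannot be told apart from library number. Symbols and lengths came from GENCODE M21 (52403 identifiers, 99.6%).

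Genes were tested with edgeR 4.0.16 (R 4.3.3; filterByExpr minimum count 10, 17286 genes kept, TMM, robust quasi-likelihood F test, Benjamini-Hochberg over these genes, threshold 0.05). SE is the fold change over the root of F. Log2 CPM used a prior count of 2. Within-tumour ratios used a two-sided exact permutation test. DESeq2 1.42.0 (2.5% of 16545 genes with an adjusted p called), limma 3.58.1, other scaling, no filter, a sex term, male tumours alone (added after seeing the data) and leaving out each tumour were alternatives. The test steps were checked on simulated data. Within a group every library differed from every other well beyond sampling noise, with 77.9 as the lowest chi-square per gene. A count of 0 allows up to 3 counts, 0.0734 to 0.105 CPM per library, which covers counting error only.

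The members and lists were chosen with earlier results of these data known. Named are all members, the 3 genes of lowest p in each list, and the 3 most similar genes per member (mean log2 CPM of at least 1). Ifnar1, the single positive gene of its list, was named after its value was seen. Some genes that these rules would name are not reported here.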

Additional observations from a re-analysis of the deposited data

Results flagged for a closer look

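Values that lie far from the rest of their group (Dixon's test at its 95% critical value) were sought in 36 groups of tumours, of which chance flags about 1 in 20, and 4 values were found. Control 4 had 219 CPM of Stat2, against 150.2 to 159 CPM in the other controls. Control 4 had 45.3 CPM of Socs1, against 16.5 to 17.8 CPM in the other controls. In the same tumour the log2 ratio of Socs1 to Stat2 was -2.27, against -3.27 to -3.10 in the other controls. In Arf6Q67L tumour 2 the log2 ratio of Cish to Stat5a was -2.62, against -1.59 to -1.12 in the rest of that group; without it the difference between groups was 0.15 instead of -0.06.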

How the results depend on the processing

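Genes past the edgeR threshold numbered 0 higher and 0 lower. DESeq2 gave 167 and 246, limma-voom with quality weights 1 and 1, male tumours alone 2 and 0, and the fits without 1 tumour 0 to 1 higher. Stat2 stayed negative under all alternatives run (-1.39 to -1.11 over the tumours left out), and DESeq2 was the alternative that called it (-1.25); edgeR and limma adjusted p-values over its alternatives ran from 0.127 to 0.426. Stat5b lay between -0.30 and 0.0305 with 1 tumour left out, positive without control 4 (0.0305). Socs1 ran from -1.02 to -0.36. With 1 tumour left out, log2 ratio differences ran from -0.30 to -0.16 for Stat3/Stat6, past a raw exact permutation p of 0.05 without Arf6Q67L tumour 5 (-0.30, p = 0.0238), from 0.44 to 0.78 for Socs1/Stat2 (past it without control 4, 0.78), from -0.20 to 0.0013 for Stat5a/Stat5b (positive without control 2), from -0.15 to 0.15 for Cish/Stat5a (positive without Arf6Q67L tumour 2) and from -0.26 to 0.12 for Socs1/Socs3 (positive without Arf6Q67L tumour 3, 0.04, or control 4, 0.12). For these changes the cause was not tested, beyond the tumour left out. The ratios of Stat2 to Stat3 (-1.22 to -1.004) and to Stat6 (-1.44 to -1.19) kept exact permutation p-values of 0.0159 or lower. No paired analysis was possible because the labels give no replicate numbers shared between the groups. Stat4 had as few as 16 counts in a library, which limits its precision.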

Other observations

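Members also differed in how widely they varied within a group. Stat4 had a ratio of highest to lowest tumour of 7.39 among Arf6Q67L tumours and 5.86 among controls, while Stat6 had 1.33 and 1.24. Stat5b ran over a ratio of 1.13 among Arf6Q67L tumours and 1.94 among controls. Socs3 ran over 3.58 among Arf6Q67L tumours and 1.81 among controls. These spreads were not tested.

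Summed B cell markers (4 genes, 1 tested) were 1.19 to 7.61 CPM in Arf6Q67L tumours and 1.59 to 18.2 CPM in controls, and keratinocyte markers (3 genes) 3.7 to 5.98 CPM in Arf6Q67L tumours and 4.03 to 5.57 CPM in controls.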
